A study of Homo sapiens with 12 samples.

Results

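Blood coagulation and complement are cascades of plasma proteins made mostly by hepatocytes, and 48 genes of these systems were followed in HuH-7, a human hepatoma cell line. Members were taken by gene symbol from a list of clotting factors, fibrinolysis genes and complement components, 24 for coagulation and fibrinolysis and 24 for complement. All 48 matched an Ensembl identifier among the 57773 in the count tables, and 47 passed the filter on low counts. The gene left out was HRG (histidine-rich glycoprotein), with 0 to 15 reads per library and 51 in all 12.

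The study compared RNA bound to HuR, the RNA-binding protein encoded by ELAVL1, with RNA bound to a SUMOylation mutant of HuR. One HuH-7 line stably overexpressed wild-type (WT) HuR, and the other stably expressed HuR K120/182R, in which a pair of lysines that can carry the small protein SUMO is replaced by arginine. Libraries were made from RNA recovered by immunoprecipitation of the V5 tag on HuR (RIP) and from total RNA (input), with 3 libraries in each of the 4 groups, called WT input, WT RIP, mutant input and mutant RIP. The labels give 1 line per genotype and do not say whether a line is a clone, so the mutation and any other difference between the lines cannot be told apart. They do not say either that replicates are separate cultures, so a p-value here reflects library-to-library spread that could be technical. No mock precipitate was analysed here, and the RNA put into a library was 16 to 77 ng for RIP against 250 ng for input, so effects of precipitation and of RNA amount cannot be told apart.

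Clotting runs as a chain of proteases that ends with thrombin cutting fibrinogen into fibrin, while serpins and the protein C system hold it back and plasmin dissolves the clot. Complement tags targets for removal through C3 and can build a membrane pore from its terminal components, and regulators in plasma and on cell surfaces protect the host. HuR is known for binding U-rich and AU-rich stretches, many of them in 3′ untranslated regions (3′ UTRs) of mRNAs.

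Gene-level totals ran from 31774994 to 73149117 reads per library, and members held 0.0860% to 0.171% of them. Levels are given as CPM, the usual count per fixed library size, with sizes scaled by edgeR's TMM, a trimmed mean of log ratios. ELAVL1 RNA ranged over 54.1 to 64.2 CPM in the WT inputs, 44.4 to 52.7 in the mutant inputs, 32.5 to 38.0 in the WT precipitates and 24.9 to 31.6 in the mutant precipitates. The 6 hepatocyte markers (ALB, AFP, APOA1, TTR, HNF4A and SERPINA1) were all tested. They summed to 9690 to 11701 CPM over the WT inputs, 7543 to 8544 over the mutant inputs, 5123 to 5504 over the WT precipitates and 3136 to 3520 over the mutant ones. AFP made up most of each sum and was lower in mutant input (−0.70 ± 0.19, adjusted p = 0.0122 by edgeR). The other 5 did not pass there, and ALB (0.25), APOA1 (0.24), TTR (0.20) and SERPINA1 (0.05) had positive log2 differences, while that of HNF4A was negative. No endothelial marker (CDH5, KDR, TEK) exceeded 0.0845 CPM and no platelet marker exceeded 0.298 in any library, and 4 stromal markers summed to at most 2.32. The 6 myeloid and lymphoid markers summed to 7.57 to 8.57 CPM over the WT precipitates, 8.81 to 11.5 over the mutant ones, 8.04 to 10.6 over the WT inputs and 12.5 to 13.8 over the mutant inputs. One of them, CD68, shares 81.6% of its exon bases with another gene, and LYZ shares 34.7% with a gene on the opposite strand. These sums hide unlike changes of the 4 that were tested. Between precipitate and input their log2 differences ran from −2.73 to 3.06 in the WT line and from −2.11 to 2.66 in the mutant line. In each line 1 was positive and 3 were negative. Whether these markers play a part in the differences below was not tested.

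Per kilobase of the main transcript, vitronectin (VTN) and the fibrinogen chains were the most abundant members in WT input. VTN stood at 117 ± 11.2 CPM per kb (SD, n = 3), the fibrinogen gamma chain FGG at 111 ± 12.3, the beta chain FGB at 91.7 ± 5.65, clusterin (CLU) at 88.6 ± 11.8 and the alpha chain FGA at 74.8 ± 4.34. These 5 lay well above the next, protein S (PROS1), at 30.2 ± 3.21. In WT RIP the order was another: FGG (68.7 ± 4.10), FGB (48.2 ± 1.94) and FGA (39.4 ± 3.12) led, while VTN stood at 15.6 ± 3.53 and CLU at 12.1 ± 0.266. The complement regulators C4BPB (19.6 ± 1.17) and CD46 (18.7 ± 2.53) came next to fibrinogen there. Factor IX (F9), no member of the list, was at 0 of 615437546 reads over the 12 libraries, which allows up to 0.00483 CPM by counting error alone.

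The first comparison asked which of these RNAs came down with WT HuR more or less than their share of cell RNA. Most coagulation and complement RNAs lay lower after precipitation than before it, with VTN, CLU, factor X (F10) and prothrombin (F2) among the most depleted. Of 47 members 34 were lower and 0 higher by edgeR's quasi-likelihood test at a Benjamini-Hochberg adjusted p under 0.05, where 25.4% of all genes and 34.0% of protein-coding genes were lower and 25.6% and 22.0% higher. No member was higher at an unadjusted p under 0.05 either, and DESeq2 called 0 higher. The median log2 difference of members was −1.01, against 0.06 over all genes tested and −0.13 over protein-coding genes. With scaling by total library size the median of all genes moved up by 1.06 to 1.12, that of the members became 0.06, and 8 members were higher and 10 lower. Over all genes the calls then went from 5875 higher and 5835 lower to 15761 and 879, so every depletion given here is relative to the typical gene. Members lay 1.07 below the median of all genes with TMM and 1.06 below it with total library size, as differences of medians on the log2 scale.

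**Figure D1:**
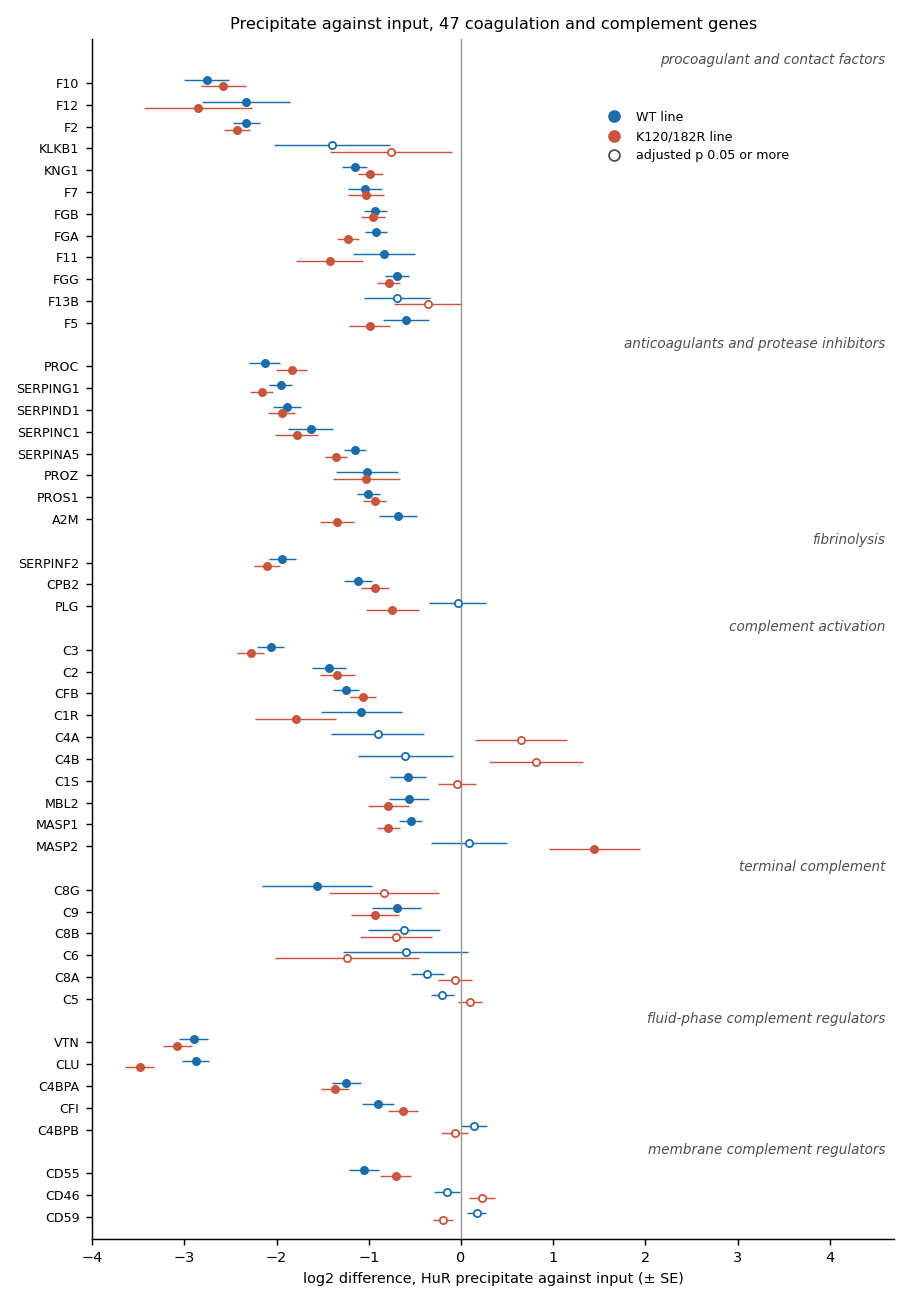
Log2 difference of each tested member between precipitate and input (x axis, ± SE of the fit), by role, in the WT line (blue) and the K120/182R line (red). Filled points had an adjusted p under 0.05. Nearly all filled points lie below 0, with VTN and CLU lowest and only MASP2 above 0 in the mutant line. With scaling by total library size, 15 of the filled WT points and 16 of the filled mutant points change sign.

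CLU, a chaperone-like plasma protein that also binds terminal complement, had the smallest adjusted p. It stood at 209, 248 and 274 CPM in WT inputs 1, 2 and 3 and at 32.4, 33.2 and 33.9 in WT RIP. The groups were far apart, with a log2 difference of −2.88 ± 0.15 (SE; adjusted p = 3.53e-13 by edgeR), or 7.34-fold lower. VTN, an adhesion protein of plasma that also blocks pore assembly, stood at 170, 206 and 193 CPM in input and 20.8, 31.8 and 23.6 in the precipitate (−2.90 ± 0.16, adjusted p = 6.13e-13 by edgeR). It shares 17.3% of its exon bases with another gene on the same strand, so its count is uncertain to that extent. F2, the precursor of thrombin, went from 53.3, 57.1 and 56.9 CPM to 9.45, 13.7 and 10.2 (−2.33 ± 0.14, adjusted p = 3.81e-12 by edgeR). All 3 genes had every precipitate library below every input library, which 28.8% of all genes did.

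Among procoagulant and contact factors, 10 of 12 were lower in WT RIP, and F5, F7, F11 and the 3 fibrinogen chains turn sign with total library size. F10, the protease that cleaves prothrombin, was at −2.76 ± 0.24 and F12, which starts the contact pathway, at −2.33 ± 0.47. F12 was scarce, at 1.10 ± 0.211 CPM (SD, n = 3) in WT input. Whether reads were counted by strand is not given in the sources used here, and antisense or opposite-strand genes cover 7.06% of the exon bases of F12, 13.8% of F11 and 14.1% of KNG1, which are uncertain to that extent. The fibrinogen chains were depleted less, at −0.93 ± 0.12 for FGA, −0.93 ± 0.13 for FGB and −0.70 ± 0.13 for FGG. Kininogen (KNG1, −1.15), factor VII (F7, −1.04), factor XI (F11, −0.84) and factor V (F5, −0.59) were lower as well. Prekallikrein (KLKB1, −1.40 ± 0.63) and the factor XIII B chain (F13B, −0.69 ± 0.35) did not pass the test.

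All 8 anticoagulants and inhibitors were lower, and PROS1, PROZ and A2M turn sign with total library size. Protein C (PROC), whose active form inactivates factors V and VIII, led at −2.13 ± 0.17, followed by C1 inhibitor (SERPING1, −1.96 ± 0.13), heparin cofactor II (SERPIND1, −1.89 ± 0.15) and antithrombin (SERPINC1, −1.63 ± 0.25). Protein C inhibitor (SERPINA5, −1.15), protein Z (PROZ, −1.02), PROS1 (−1.01) and alpha-2-macroglobulin (A2M, −0.68) were depleted less. Of the 3 fibrinolysis genes tested, antiplasmin (SERPINF2, −1.94 ± 0.14) and the fibrinolysis inhibitor CPB2 (−1.12 ± 0.15) were lower. Plasminogen (PLG), the precursor of plasmin, was at −0.03 ± 0.31 and did not pass.

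Of the 24 complement genes 14 were lower, against 20 of the 23 coagulation and fibrinolysis genes tested, a contrast that was not tested. C3, the central component, was at −2.07 ± 0.14, and 7 of 10 activation genes were lower, of which C1S, MASP1 and MBL2 turn sign with total library size. C2 (−1.43) and factor B (CFB, −1.24) belong to them, but a read-through gene shares 25.5% of C2's and 42.3% of CFB's exon bases, so both are uncertain. C1R shares 14.3% of its exon bases with C1RL on the same strand, which had 4646 reads against its own 326. C1R (−1.08), C1S (−0.57), mannose-binding lectin (MBL2, −0.57) and its protease MASP1 (−0.55) were the others. Of the terminal components, 2 of 6 were lower, C8G (−1.56 ± 0.59) and C9 (−0.70 ± 0.26, which turns with total library size). C5, the precursor of the first pore component, was at −0.20 ± 0.13, C8A at −0.36 ± 0.18, C8B at −0.62 ± 0.39 and C6 at −0.60 ± 0.68, none past the test. Among fluid-phase regulators VTN, CLU, C4BPA (−1.24) and factor I (CFI, −0.90) were lower, CFI with the sign turned by total library size, while C4BPB was at 0.14 ± 0.14. The C4BPA and C4BPB genes encode the alpha and beta chains of the same regulator, C4b-binding protein.

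The membrane regulators, made by most cell types, included a pair of RNAs near their input level. CD59, which blocks the last step of pore assembly, was at 42.1, 41.1 and 39.0 CPM in WT input and 47.9, 45.3 and 44.3 in WT RIP (0.17 ± 0.11, adjusted p = 0.189 by edgeR). Its precipitates lay just above its inputs, and 6980 of 22984 genes tested had every precipitate above every input. CD46, a cofactor for C3b breakdown, stood at −0.15 ± 0.14, while CD55, which speeds decay of the C3 convertase, was lower at −1.05 ± 0.16 and at 0.0058 with total library size.

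Leaving out 1 library at a time kept 25 of the 34 calls. The other 9 were lost without at least 1 library: F11 without any one of the 6, F5 without all but WT input 3, and C1R, MBL2, C8G and C9 without 4 of 6. PROZ was lost without WT RIP 3 or WT input 1, and A2M and C1S without WT RIP 1 or WT input 2. Their highest adjusted p was 0.156 for F11, 0.233 for F5, 0.197 for C1R, 0.181 for MBL2, 0.111 for C8G, 0.108 for C9, 0.0992 for PROZ, 0.0548 for A2M and 0.0895 for C1S (edgeR).

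Stretches of the 3′ UTR are shown for 4 abundant members near their input level and 4 among the most depleted, since HuR is known for binding U-rich RNA. The 8 were chosen after their values were seen, as the 4 highest and 4 lowest of the members whose mean log2 CPM reached 2 and whose 3′ UTR is over 30 bases. CLU meets this rule among the depleted members but its sequence is not shown. Each line gives the 30 bases of the 3′ UTR with the most T (U in the RNA), 5′ to 3′ on the gene's strand, from the GENCODE transcripts on GRCh37. Capitals mark matches to TTTNTTT, overlaps counted, searched on the transcript's strand. The first 4 are near input level and the last 4 depleted.
CD59, chr11:33728089-33728118, minus strand: TTTTTTTTTTTTTTTTTTTTTaaacccttt
C4BPB, chr1:207273303-207273332, plus strand: taaacctatgaataaattttcttcttggtt
CD46, chr1:207968584-207968613, plus strand: tttgattttttcaaatttaatatttatatt
C5, chr9:123714935-123714964, minus strand: aagttcgTTTTTTTGTTTtcttcTTTTTTT
VTN, chr17:26694337-26694366, minus strand: ccctctgtagctccctcctcccatctcctt
F2, chr11:46761003-46761032, plus strand: aattatttttgtgtttctaaaactatggtt
PROC, chr2:128186598-128186627, plus strand: cctgctgttctgtccttccatccctctttt
C3, chr19:6677831-6677860, minus strand: ttcagttatatctcacgtgtctggagttct

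The CD59 and C5 windows hold 24 and 22 T in 30 bases, CD46 19, F2 16, C4BPB and PROC 14, C3 13 and VTN 10. The UTRs differ in length, from 7116 bases in CD59 and 2027 in CD46 to 404 in C5, 296 in PROC, 178 in C3, 98 in F2, 85 in VTN and 64 in C4BPB, and a longer UTR offers more windows. CD59 holds 31 TTTNTTT matches in its whole 3′ UTR, CD46 4 and C5 3, and each of the other 5 holds 0. Since overlaps are counted, many of the CD59 matches lie in the run of T shown and are not separate stretches. CLU, strongly depleted, holds 2 in a 3′ UTR of 1324 bases, and C4BPB, with none, was near its input level, so the match did not separate these 9 by level. As a group the members had short 3′ UTRs, with a median of 392.5 bases over 46 members against 1230 over 13906 coding genes. At least 1 TTTNTTT was found in 52.2% of members and 70.2% of coding genes, and at least 1 ATTTA in 47.8% and 71.0%. A window with 20 or more T was found in 17.8% of 45 members and 38.9% of 13838 coding genes. A match is a description of the letters, not a binding site.

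Depletion moved with base composition. Across the 47 members, the log2 difference in the WT line had Spearman's rho of −0.53 with transcript GC content, and across 14017 coding genes −0.46. The points share libraries and depth, so no p is given. VTN (59.5% GC), F2 (58.3%), F10 (59.3%) and C3 (56.5%) lay at the GC-rich, depleted end, and CD46 (38.2%) and C5 (40.0%) at the other, while CLU was the lowest near the middle. With transcript length rho was 0.49 over members and 0.04 over coding genes. After each library's trend with GC was removed, 36 members were lower and 0 higher, with a median of −0.97.

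**Figure D2:**
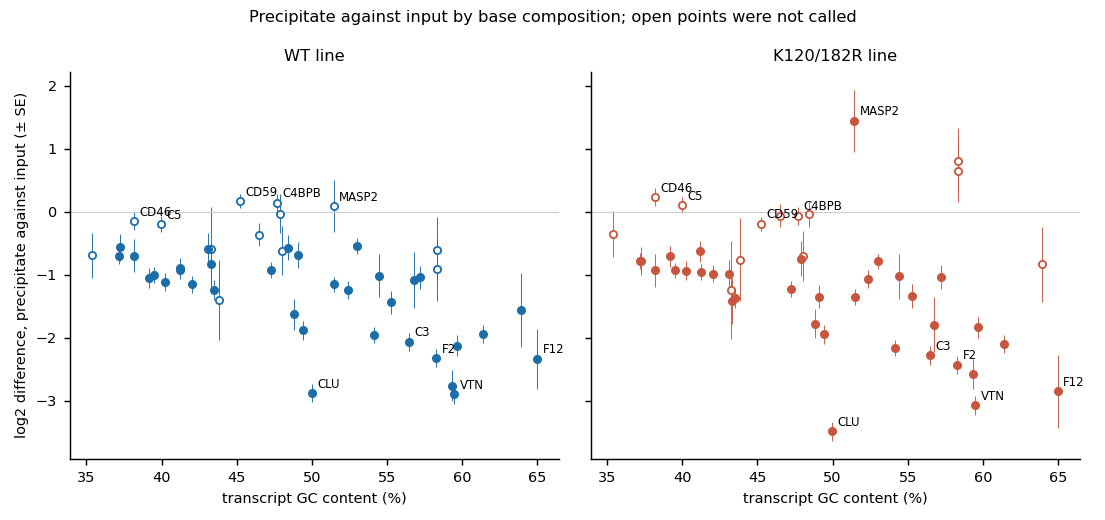
Log2 difference between precipitate and input (y axis, ± SE) against GC content of the main transcript (x axis, %) for 47 members in the WT line (left, blue) and the K120/182R line (right, red). Filled points had an adjusted p under 0.05. GC-rich members such as VTN and F2 lie low and CD46 and C5 lie near 0, with rho of −0.53 and −0.47.

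K120/182R precipitates were set against inputs of the same line, with no library shared with the WT comparison. With K120/182R HuR, 33 of 47 members were lower in the precipitate and 1 higher, where 28.0% of all genes and 36.1% of coding genes were lower and 29.0% and 26.6% higher. The median was −0.98 over members and 0.07 over all genes. With total library size all genes moved up by 1.31 to 1.38, the members' median became 0.32, and 14 were higher and 10 lower. Over all genes the calls then went from 6664 higher and 6438 lower to 16795 and 922. Of the 47 members 32 were lower in both lines, 0 were called in opposite directions, 11 in neither line and 4 in 1 line only. Of all genes 22.3% were lower in both, 21.2% higher in both and 0.0174% opposite.

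CLU and VTN again lay lowest. CLU was at 437, 370 and 336 CPM in mutant input and 37.2, 35.6 and 29.2 in mutant RIP (−3.49 ± 0.15, 11.2-fold lower, adjusted p = 1.05e-14 by edgeR). VTN was at 251, 222 and 203 CPM against 27.7, 29.0 and 23.4 (−3.08 ± 0.16, adjusted p = 8.22e-14 by edgeR). SERPING1, the serpin that blocks C1 and the contact proteases, was at 32.0, 32.7 and 30.8 CPM against 7.03, 7.0 and 7.29 (−2.16 ± 0.13, adjusted p = 7.29e-13 by edgeR). In all 3 genes each precipitate lay below each input, as in 30.3% of all genes.

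By role, 10 of 12 procoagulant factors were lower (F5, F7, KNG1 and the fibrinogen chains turn sign with total library size), with F12 (−2.85 ± 0.59), F10 (−2.58 ± 0.24) and F2 (−2.43 ± 0.14) at the end. The F12 value rests on 16, 18 and 20 reads in mutant input and 8, 4 and 0 in mutant RIP. All 8 anticoagulants and inhibitors were lower, from SERPING1 to PROS1 (−0.93 ± 0.13), and PROS1 and PROZ turn sign with total library size. The 3 fibrinolysis genes were lower too: SERPINF2 (−2.10), CPB2 (−0.94) and PLG (−0.74), of which CPB2 and PLG turn sign with total library size. Among complement activation genes 6 of 10 were lower, C3 (−2.28 ± 0.15) most, and CFB, MASP1 and MBL2 turn sign with total library size. C9 (−0.93 ± 0.26) was the 1 lower terminal component of 6, and C5 was at 0.10 ± 0.13. C4BPA (−1.37) and CFI (−0.63) were lower, and C4BPB was at −0.07 ± 0.15. Of the membrane regulators CD55 was lower (−0.71 ± 0.16), and CD46 (0.23 ± 0.14) and CD59 (−0.19 ± 0.11) did not pass. With total library size C9, CFI and CD55 turn sign as well.

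MASP2, the lectin-pathway protease that cleaves C4 and C2, was the member higher in mutant RIP. It stood at 0.119, 0.234 and 0.106 CPM in mutant input and 0.395, 0.359 and 0.528 in mutant RIP (1.44 ± 0.49, adjusted p = 0.0147 by edgeR). This rests on counts of 4 to 9 per input library, which may stand for fewer fragments, and 3.38% of its exon bases lie in TARDBP on the opposite strand, a gene with 31526 reads against 263 for MASP2. The call was lost without mutant RIP 3 (adjusted p = 0.0516), mutant input 1 (0.0537) or mutant input 3 (0.0647). MASP2 was 0.09 ± 0.41 in the WT line. Of the 33 lower calls, PROZ was lost without mutant RIP 1 or mutant input 1 (adjusted p up to 0.109) and PLG without mutant RIP 1 or 2 or mutant input 1 or 2 (up to 0.126).

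Whether the enrichment itself differed between the lines was tested as the difference of enrichments, mutant minus WT. No member passed: edgeR called 0 of 47 higher and 0 lower, where 0.0653% of all genes were called. At an unadjusted p under 0.05 there were 2 higher, C4A and MASP2, and 3 lower, CD59, CLU and A2M, where 7.60% of all genes were higher and 5.47% lower. DESeq2, which gave 18 of the 47 an adjusted p here, called 0 higher and 1 lower, CLU (−0.61, adjusted p = 0.0469), which in edgeR was at −0.61 ± 0.20 (adjusted p = 0.176). Over the alternatives in edgeR the adjusted p of CLU ran from 0.0693 to 0.616. The 15 members with a mean log2 CPM of at least 4 had differences of −0.61 to 0.38 with standard errors of 0.15 to 0.21. Scarcer members varied more, up to 1.56 ± 0.71 for C4A. A missed call does not show that the lines bound a member alike.

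The inputs of the lines were compared next, which asked how the cells' own levels of these RNAs differed. The K120/182R line had more A2M, F5, PLG, SERPINC1, CFI, CLU and C4BPA RNA and less SERPINA5, C5, FGB, C4BPB, CD59, MASP2, C2, C1S and PROC. These 7 higher and 9 lower members of 47 stand beside 7.47% of all genes higher and 10% lower (8.91% and 14.2% of coding genes). The median of members was −0.22 and of all genes 0.00. With total library size all genes moved by −0.43, 3 members were higher and 24 lower, and the calls over all genes went from 1716 higher and 2301 lower to 386 and 6822. In bulk RNA, fewer cells making a transcript and less transcript per cell cannot be told apart.

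**Figure D3:**
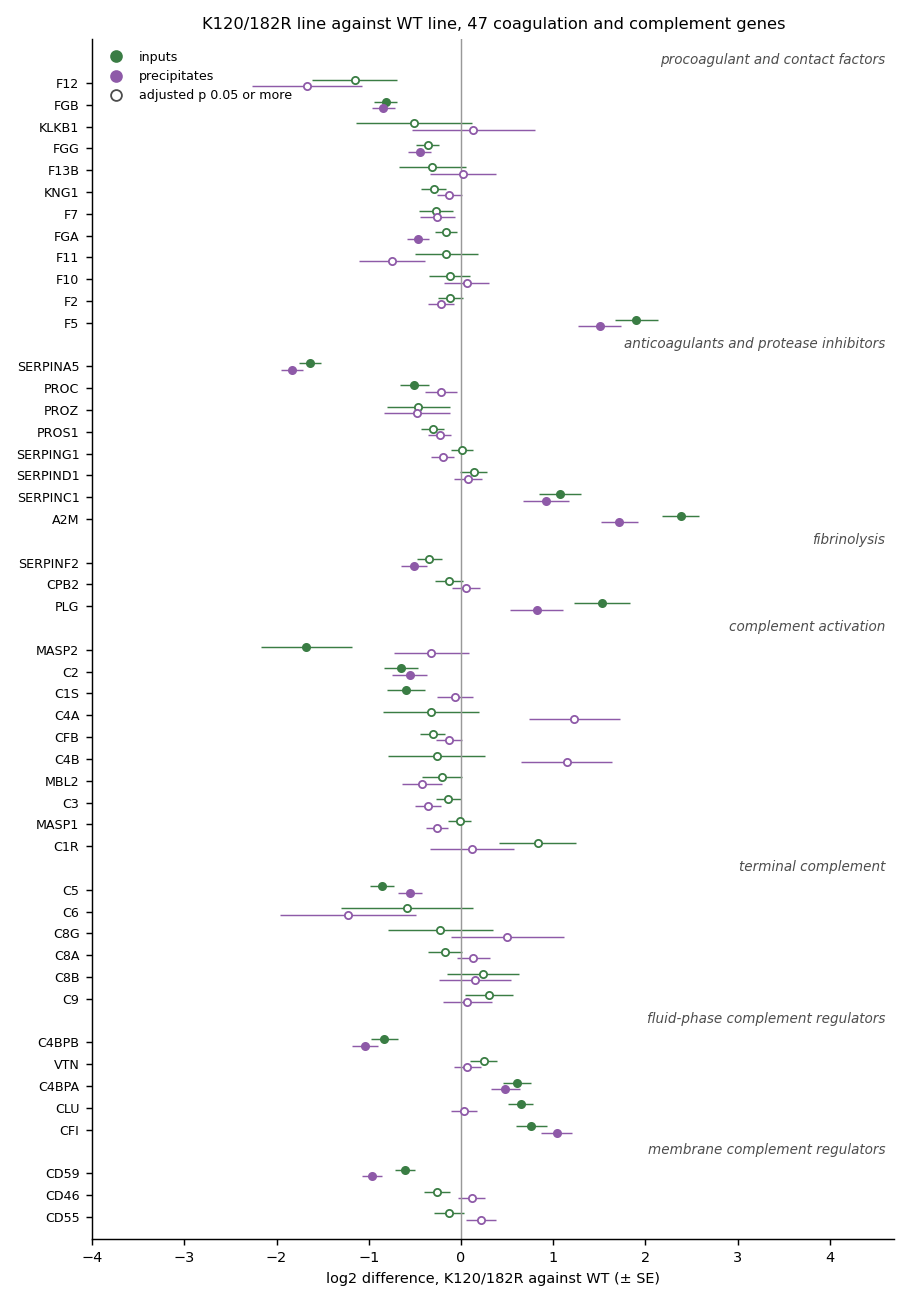
Log2 difference of each tested member between the K120/182R and the WT line (x axis, ± SE), by role, in inputs (green) and in precipitates (purple). Filled points had an adjusted p under 0.05. A2M and F5 lie furthest right among filled points of both kinds, SERPINA5 lies furthest left between precipitates and next to MASP2 between inputs, and no filled point changes sign with total library size.

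A2M, a broad protease inhibitor of plasma, stood at 1.73, 2.57 and 2.25 CPM in the WT inputs against 10.7, 11.6 and 11.7 in the mutant ones. That is 5.21-fold higher (2.38 ± 0.20, adjusted p = 1.03e-08 by edgeR), with all mutant libraries far above all WT libraries, as in 15.6% of all genes. F5, the cofactor of factor Xa, went from 1.12, 1.34 and 0.815 CPM to 3.76, 4.63 and 3.78 (1.90 ± 0.23, adjusted p = 4.65e-06 by edgeR). PLG went from 0.592, 0.681 and 1.03 CPM to 2.71, 2.44 and 1.53 (1.53 ± 0.30, adjusted p = 0.000912 by edgeR). A2M-AS1 covers 8.88% of the exon bases of A2M on the opposite strand, so A2M is uncertain to that extent. All 3 were scarce RNAs in the WT line, and the lowest mutant PLG library lay well below the other two. SERPINC1 (1.07 ± 0.23), CFI (0.76 ± 0.17), CLU (0.65 ± 0.14) and C4BPA (0.61 ± 0.15) were the other higher members.

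SERPINA5, the heparin-dependent inhibitor of activated protein C, went the other way. It was at 67.4, 70.1 and 65.3 CPM in the WT inputs against 21.6, 22.6 and 21.2 in the mutant ones (−1.63 ± 0.12, 3.10-fold lower, adjusted p = 9.48e-10 by edgeR). C5 was at 61.9, 66.4 and 51.8 CPM against 28.3, 37.2 and 33.9 (−0.86 ± 0.13, adjusted p = 4.84e-05 by edgeR). FGB was at 354, 334 and 313 CPM against 181, 203 and 185 (−0.82 ± 0.13, adjusted p = 6.74e-05 by edgeR). In each of the 3 the mutant inputs lay below the WT inputs, as in 18.1% of all genes. FGB, FGA and FGG neighbour each other on chromosome 4, yet FGA (−0.16 ± 0.12) and FGG (−0.36 ± 0.13, adjusted p = 0.0504) did not pass. The 3 chains assemble into 1 fibrinogen molecule.

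C4BPB was lower at −0.83 ± 0.15 while C4BPA was higher at 0.61 ± 0.15, so the chains of C4b-binding protein went opposite ways between these inputs. CD59 was lower (−0.60 ± 0.11), and CD46 (−0.26 ± 0.14) and CD55 (−0.13 ± 0.16) did not pass. F2 (−0.11 ± 0.14), C3 (−0.14 ± 0.14), MASP1 (−0.01 ± 0.12), SERPING1 (0.01 ± 0.12), SERPIND1 (0.14 ± 0.14) and VTN (0.25 ± 0.15) did not pass either. Calls of PROC (−0.51), C1S (−0.60), C2 (−0.65) and MASP2 (−1.68) were lost without some single libraries, with adjusted p up to 0.158, 0.160, 0.0770 and 0.0821. Without mutant input 3 all 4 were lost and the lower members fell from 9 to 5. PROC was also lost without WT input 1 or 2 or mutant input 2, C1S without WT input 1, 2 or 3 or mutant input 1, C2 without WT input 2 or 3, and MASP2 without WT input 1 or mutant input 1.

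**Figure D4:**
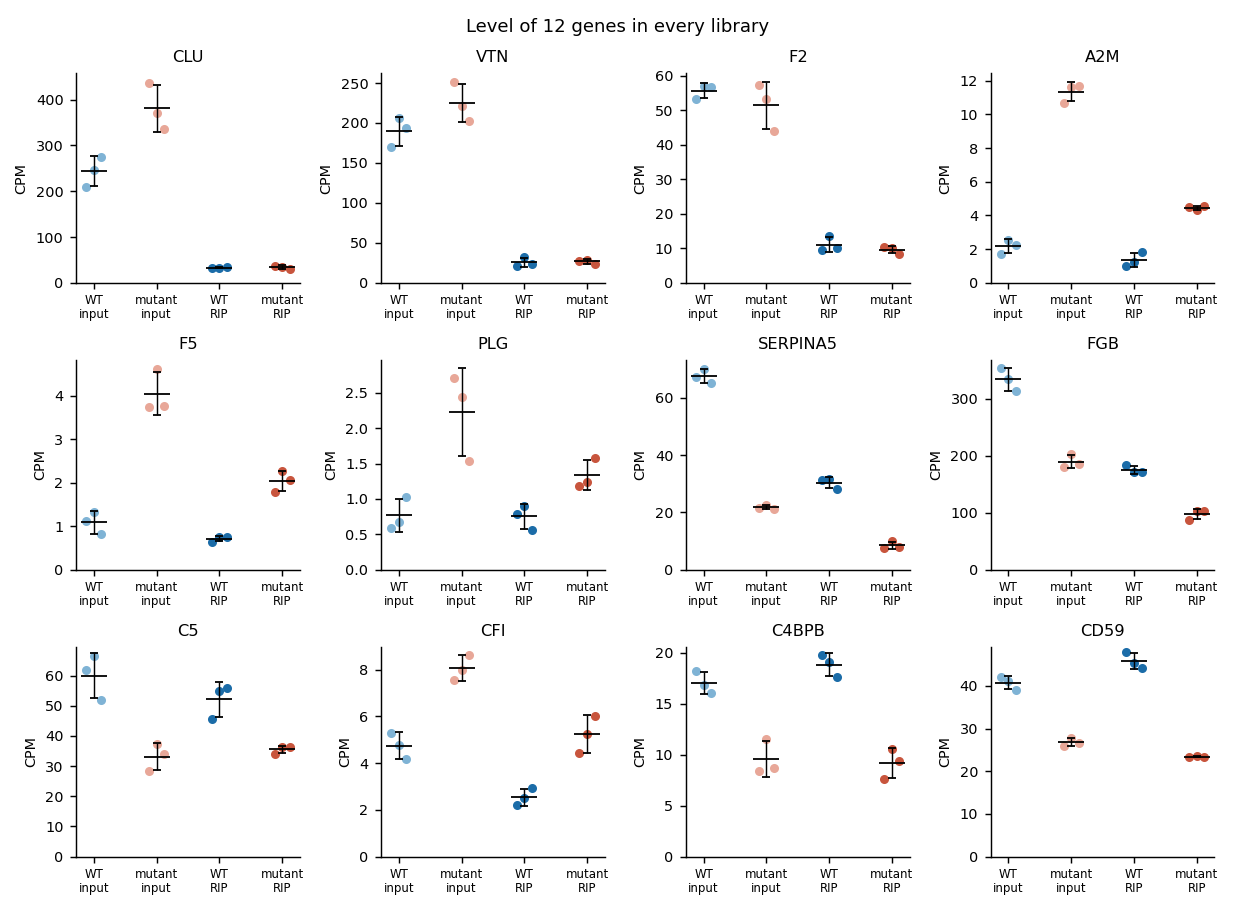
Level of 12 members in every library (y axis, CPM, starting at 0), with each group's mean and SD (black, n = 3). CLU, VTN and F2 drop from input to RIP in both lines, A2M, F5, PLG and CFI are higher in both mutant groups, and SERPINA5, FGB, C5, C4BPB and CD59 lower.

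The precipitates of the lines were then compared directly. In mutant RIP 6 members were higher and 9 lower than in WT RIP, where 9.87% of all genes were higher and 9.76% lower (11.6% and 13.4% of coding genes), and the median of members was −0.13. With total library size all genes moved by −0.18 and 3 members were higher and 10 lower, and the calls over all genes went from 2268 higher and 2244 lower to 776 and 2529. A2M stood at 0.976, 1.24 and 1.82 CPM in WT RIP and 4.48, 4.34 and 4.57 in mutant RIP (1.72 ± 0.20, adjusted p = 1.35e-06 by edgeR). F5 stood at 0.645, 0.747 and 0.758 against 1.79, 2.27 and 2.06 (1.5 ± 0.23, adjusted p = 6.29e-05 by edgeR). CFI, the protease that inactivates C3b and C4b, was at 2.2, 2.49 and 2.92 against 4.43, 5.24 and 6.03 (1.04 ± 0.17, adjusted p = 0.000107 by edgeR). In all 3 the mutant precipitates lay above the WT ones, as in 18.1% of all genes.

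SERPINA5 was lowest between the precipitates, at 31.2, 31.8 and 28.3 CPM in WT RIP and 7.71, 9.86 and 8.01 in mutant RIP (−1.84 ± 0.12, adjusted p = 2.53e-10 by edgeR). CD59 was at 47.9, 45.3 and 44.3 against 23.4, 23.5 and 23.4 (−0.97 ± 0.11, adjusted p = 8.27e-07 by edgeR). C4BPB was at 19.7, 19.1 and 17.6 against 7.57, 10.5 and 9.34 (−1.04 ± 0.14, adjusted p = 1.31e-05 by edgeR). In all 3 each mutant library lay below each WT library, as in 17.5% of all genes. All fibrinogen chains were lower here, FGB at −0.84 ± 0.13, FGA at −0.46 ± 0.12 and FGG at −0.45 ± 0.13, with C5 (−0.55), SERPINF2 (−0.51) and C2 (−0.55). SERPINC1 (0.92), PLG (0.82) and C4BPA (0.48) completed the higher members.

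Without mutant RIP 1, the higher members in the precipitates fell from 6 to 3. C4BPA was lost without any one library (adjusted p up to 0.113), PLG without all but WT RIP 2 (up to 0.192) and C2 without all but mutant RIP 2 (up to 0.229). SERPINC1 was lost without WT RIP 2 or mutant RIP 1 (up to 0.0629), SERPINF2 without WT RIP 2 or mutant RIP 3 (up to 0.0900) and FGG without WT RIP 1 (0.0514).

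The differences between the lines were then set side by side in input and precipitate, 2 comparisons that share no library. Across the 47 members they had Spearman's rho of 0.69 and Pearson's r of 0.77. Across 22984 genes these were 0.47 and 0.46, and across 14017 coding genes 0.58 and 0.62. Members and genes are not independent replicates, and no p is given. Called in both were 6 higher (A2M, F5, PLG, SERPINC1, CFI and C4BPA) and 6 lower (SERPINA5, FGB, C5, C4BPB, CD59 and C2), with 0 in opposite directions, where 3.76%, 5.17% and 0.0435% of all genes were. Of 14017 coding genes 650 were higher in both, 1051 lower in both and 9 opposite. Another 3 members were called in the precipitates alone and 4 in the inputs alone, against 2450 and 1955 of 22984 genes (1798 and 1532 of coding genes).

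**Figure D5:**
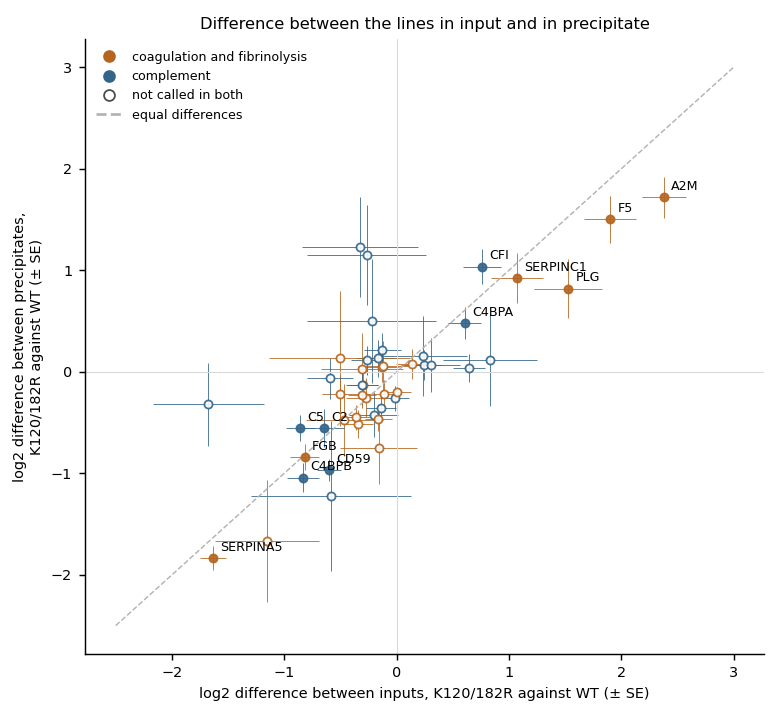
Log2 difference between the lines in precipitates (y axis) against that in inputs (x axis), each ± SE, for 47 members, with coagulation and fibrinolysis in brown and complement in blue. Filled and named points were called in both, 6 higher and 6 lower. Among them PLG (1.53 in inputs, 0.82 in precipitates) and A2M (2.38 and 1.72) lie furthest from the dashed line of equal differences.

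CLU and MASP2, with PROC and C1S, were called between the inputs and not between the precipitates. CLU was higher in mutant input (0.65 ± 0.14, adjusted p = 0.00196 by edgeR) and nearly equal in the precipitates (0.04 ± 0.14, adjusted p = 0.895). MASP2 was lower in mutant input (−1.68 ± 0.49) and at −0.32 ± 0.41 between the precipitates. The difference of enrichments passed in edgeR for none of these 4.

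C4A and C4B, whose products carry the reactive thioester of the classical pathway, lie side by side on chromosome 6 and could not be measured apart. Their counts were equal in 6 of 12 libraries and differed by at most 6 reads in the rest. Their coding sequences of 5232 bases differ at 13 positions (99.8% identity). The 60 coding bases with the densest differences are shown, with the 5 differing bases in capitals (GRCh37, plus strand, 5′ to 3′). Differences are sparser in the rest of the coding sequence, where a read has less to tell the genes apart.
C4A, chr6:31963817-31963876: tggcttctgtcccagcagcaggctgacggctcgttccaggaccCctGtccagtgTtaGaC
C4B, chr6:31996555-31996614: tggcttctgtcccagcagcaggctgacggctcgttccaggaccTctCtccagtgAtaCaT

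C4A stood at 0.298, 0.155 and 0.323 CPM in the WT precipitates, 0.649, 0.408 and 0.780 in the mutant ones, 0.296, 0.655 and 0.515 in the WT inputs and 0.209, 0.728 and 0.211 in the mutant inputs. C4B stood at 0.314, 0.155 and 0.323, then 0.649, 0.343 and 0.780, then 0.254, 0.576 and 0.386, then 0.209, 0.572 and 0.211. The mutant precipitates lay above the WT precipitates, as in 18.1% of all genes, while the inputs overlapped. Neither gene passed in any of the 5 comparisons (between precipitates 1.23 ± 0.49 for C4A, adjusted p = 0.0810 by edgeR). With both summed as 1 gene, that difference was 1.19 (adjusted p = 0.0449 by edgeR). If the same reads were counted for both genes, the sum counts them 2 times, so no call is drawn from it.

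Other genes of the same pathways, from lists of 25 for coagulation and fibrinolysis and 26 for complement, were called in both directions. Of 21 other coagulation genes tested, 3 were higher and 8 lower after precipitation of WT HuR, and 2 and 8 in the mutant line. In the WT line 22.0% of coding genes were higher and 34.0% lower (25.6% and 25.4% of all genes). In the mutant line these shares were 26.6% and 36.1% (29.0% and 28.0% of all genes). Tissue factor (F3), the starter of clotting, was higher in both precipitates (1.0 ± 0.15 and 0.67 ± 0.15), as was the plasminogen receptor subunit S100A10 (1.27 ± 0.14 and 1.06 ± 0.14). The protease-activated receptor F2RL1 was lower (−0.93 and −1.02), and the factor V and VIII cargo receptor LMAN1 was at −0.80 and −0.91. Of 10 other complement genes tested, 5 were lower and 0 higher in each line by edgeR, with 0 higher by DESeq2 and 0 at an unadjusted p under 0.05, and with the carboxypeptidase N subunit CPN2 at −2.01 ± 0.18 and −2.51 ± 0.20. With total library size these counts become 14 higher and 0 lower in the WT line and 15 and 0 in the mutant line for coagulation, and 3 and 2 and 3 and 3 for complement, and the signs of F2RL1 and LMAN1 turn in both lines. With TMM from protein-coding genes 5 coagulation genes were higher in each line, and without mutant input 2 there were 4 in the mutant line.

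Between the inputs 2 other coagulation genes were higher and 6 lower in the mutant line, and of 10 other complement genes edgeR called 0 higher and 1 lower. Of coding genes 8.91% were higher and 14.2% lower there, and of all 22984 genes 1716 and 2301. DESeq2 called 1 of the 10 higher. At an unadjusted p under 0.05 by edgeR 2 of the 10 were higher, as were 3232 of all 22984 genes. The 6 lower coagulation genes became 2 without WT input 1 or without WT input 2, 4 without WT input 3 and 3 without any one mutant input, 3 with TMM from protein-coding genes and 11 with total library size. The lower complement gene was lost without WT input 1 or mutant input 2. The thrombin inhibitor SERPINE2 (1.97 ± 0.29) was higher, and MCFD2, the partner of LMAN1, was lower (−0.56 ± 0.12). Between the precipitates 3 coagulation genes were higher and 5 lower (3 lower without WT RIP 1, and 1 higher with total library size), and 1 complement gene was higher and 1 lower (0 and 2 with total library size). In that comparison 11.6% of coding genes were higher and 13.4% lower (9.87% and 9.76% of all genes). SERPINE2 was higher there (2.38 ± 0.32), and MCFD2 (−0.75 ± 0.12), CPN2 (−1.14 ± 0.20) and S100A10 (−0.62 ± 0.14) were lower. In the difference of enrichments, where 0.0653% of all genes were called, edgeR called 0 of these 21 and 0 of these 10. At an unadjusted p under 0.05, where 7.60% of all genes were higher and 5.47% lower, there were 3 and 0 of them. DESeq2, which gave 10 and 1 of them an adjusted p, called 0 and 0.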

How the data were processed

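RNA was measured by sequencing in 12 libraries, V5 (HuR) precipitates and inputs of 2 HuH-7 lines. The deposited values are raw read counts per gene that the authors made with cutadapt, STAR 2.4.0j and featureCounts 1.6.4 on hg19, after bcl2fastq 2.20.0.422, per the submitters' processing notes. The annotation release and the treatment of reads with several matches are not given in the sources used here. Of counts from 1 to 20, 68.5% to 79.0% per library were even. If both ends of a pair, or several matches of a read, were counted, fewer fragments stand behind a count, which was not tested.

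Identifiers were matched to GENCODE v44 lifted to GRCh37 (55538 of 57773 matched). Genes were filtered with filterByExpr of edgeR 4.0.16, scaled by TMM and fitted with 1 coefficient per group over all 12 libraries, using the robust quasi-likelihood test. This gave 22984 genes and 8 residual degrees of freedom. Benjamini-Hochberg adjustment ran over all genes, with a threshold of 0.05. Totals of 31774994 to 73149117 counts give the depth. A reported SE is the log2 difference divided by the root of the F statistic. The same script was tested on simulated data with 200 genes changed in mutant RIP. Apart from these changes each simulated gene had the same mean in all groups. The simulation thus cannot show how the scaling does where many genes differ between precipitate and input. In the difference of enrichments it found 5.97%, 34.3% and 69.7% of log2 changes of 0.5, 1 and 2. False calls were 8 of 81 there, 10 of 114 between precipitates and 7 of 108 in mutant RIP against mutant input.

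Every member is named. Values per library are given for up to 3 members per direction and comparison with the smallest adjusted p, plus C4A and C4B, and up to 4 other pathway genes are named per comparison. Members and lists were chosen with earlier results of these data known. Samples were grouped by their labels. Alternatives were other scalings and filters, DESeq2, fits of the compared groups, a replicate block, removal of the GC trend, and leaving out each library. PECAM1 was not analysed here. One other pathway gene that the naming rule selects is not reported here.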

Additional observations from a re-analysis of the deposited data

How the results depend on the processing

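Of the 99 single calls for members, the alternatives gave 1575 values, of which 1401 kept direction and side of the threshold, 143 kept direction only and 31 changed sign, all of these with total library size. Without that setting 1356 of 1476 values kept both and 0 changed sign.

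With total library size, members in WT RIP against WT input were 8 higher and 10 lower, in mutant RIP against mutant input 14 higher and 10 lower, between the precipitates 3 higher, and between the inputs 3 higher and 24 lower. That scaling turned these log2 differences in the WT line: F5 0.47, F7 0.0063, F11 0.24, FGA 0.14, FGB 0.13, FGG 0.37, PROS1 0.0609, PROZ 0.000237, A2M 0.39, C1S 0.49, MASP1 0.51, MBL2 0.53, C9 0.37, CFI 0.14 and CD55 0.0058. In the mutant line it turned F5 to 0.32, F7 0.28, FGA 0.0823, FGB 0.35, FGG 0.53, KNG1 0.32, PROS1 0.38, PROZ 0.26, PLG 0.57, CPB2 0.38, CFB 0.25, MASP1 0.53, MBL2 0.53, C9 0.37, CFI 0.67 and CD55 0.60, and 5 of the 31 turned values passed the threshold. This setting leaves out the TMM factors, which were 1.32 to 1.78 in precipitates and 0.526 to 0.909 in inputs.

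With TMM from protein-coding genes, which moved the median of all genes by 0.14 in both lines, 1 member was higher in the WT line and 2 in the mutant line. With the stricter filter these were 1 and 0, since MASP2 was not tested there. With the GC trend removed, alone or with the replicate block, 3 were higher in the mutant line. DESeq2 called 1 member lower in the difference of enrichments. Over all genes that comparison had 15 higher and 0 lower by edgeR, 379 and 55 by DESeq2, and 0 and 0 without WT RIP 1 or mutant RIP 3. For these the cause was not tested, apart from the filter.

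Leaving out 1 library gave 0 higher and 27 to 30 lower members in the WT line, 0 to 3 higher and 31 to 33 lower in the mutant line, 0 in the difference of enrichments, 3 to 4 higher and 7 to 10 lower between precipitates, and 7 higher and 5 to 9 lower between inputs. Samples with the same replicate number had correlations of their deviations from −0.105 to 0.138, and those with different numbers from −0.178 to 0.137. Between WT RIP and mutant RIP, same numbers gave −0.00755 to 0.138 and different numbers −0.178 to 0.0594. With 3 libraries per group this cannot decide whether the numbers pair the samples. With the replicate block the counts higher and lower were 0 and 32 in the WT line, 1 and 33 in the mutant line, 0 and 0 in the difference of enrichments, 5 and 9 between precipitates, and 7 and 9 between inputs. Depth limits scarce members: C4A, C4B, C6, C8G and KLKB1 had standard errors of at least 0.49 in each comparison.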
